A study of Mus musculus with 9 samples.

Results

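The complement genes followed in whole mouse retinas were C1qa, C1qb, C1qc, C1ra, C4b, C3, Serping1, C3ar1 and C5ar1. They were chosen by symbol as components, a regulator and receptors of the complement system, and all 9 were found once each among the 47729 genes of the count table. RNA was sequenced from 9 retinas, 3 in each of 3 groups on a C57Bl6/J background. Yap CKO retinas, aged P60, had both Yap alleles floxed and the Rax-CreERT2 driver, whose Cre acts in Müller cells, the main glia of the retina. Control retinas, also P60, had the floxed Yap alleles and no Cre. They are named control in title and source, while their genotype field reads Yap CKO without the Cre driver. The 2 P60 groups shared an injection of 4-hydroxytamoxifen at P10. C57 retinas were wild type, aged P30 and taken over from an earlier series, with no injection described. The column names of both P60 groups carry the letters MNU, for which the labels describe no treatment. A P60 library was made from 1 retina, and the labels do not say that every retina came from a different animal, so the p-values measure the spread between these retinas.

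Complement is a cascade of plasma and tissue proteins that tags surfaces for removal. The classical branch starts when C1q, built of the chains of C1qa, C1qb and C1qc, binds a target and the attached protease C1r activates C1s. C1s cleaves C4, and the resulting enzyme cleaves C3, the protein on which every branch converges. Fragments of C3 stay on the target, while the small fragments C3a and C5a act on the receptors encoded by C3ar1 and C5ar1. In nervous tissue C1q comes mainly from microglia and macrophages, and complement there is known for the marking of synapses and of dying cells. Microglia also clear dying photoreceptors from the retina.

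The 3 C1q genes lie next to each other on the minus strand of chromosome 4 (GRCm38) within 18675 bases that hold no other gene of the table: C1qb at 136880129 to 136886187, C1qc at 136889804 to 136893065 and C1qa at 136895917 to 136898803. C3 lies on chromosome 17 at 57203970 to 57228136, minus strand. Promoters, from 250 bases before to 50 bases after the gene start, were listed by RefSeq (GRCm38.p6) for 6 of the 9 members, namely C1qb, C1qc, C1ra, C3, C3ar1 and C5ar1. Those of C1qb and C1qc are shown as neighbours whose transcripts make 1 protein, and that of C3 because its transcript differed widely between the P60 and P30 retinas. The transcripts of C3ar1 and C5ar1 differed widely too, and their promoters, not shown, held none of the searched motifs. Each promoter shown runs 5′ to 3′ on the strand of the gene, with matches to the searched motifs in capitals.
C1qb, chr4:136886151-136886450: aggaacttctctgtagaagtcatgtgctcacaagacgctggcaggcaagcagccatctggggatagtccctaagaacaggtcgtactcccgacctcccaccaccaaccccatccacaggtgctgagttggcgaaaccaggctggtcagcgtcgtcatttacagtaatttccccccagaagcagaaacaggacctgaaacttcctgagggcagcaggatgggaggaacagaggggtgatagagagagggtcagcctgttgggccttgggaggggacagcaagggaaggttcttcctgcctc
C1qc, chr4:136892865-136893164: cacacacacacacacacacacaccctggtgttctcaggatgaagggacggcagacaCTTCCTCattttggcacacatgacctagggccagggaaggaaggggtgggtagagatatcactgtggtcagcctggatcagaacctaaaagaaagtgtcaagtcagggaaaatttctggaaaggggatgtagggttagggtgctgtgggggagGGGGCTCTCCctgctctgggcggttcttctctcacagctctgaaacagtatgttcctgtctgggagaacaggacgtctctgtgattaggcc
C3, chr17:57228087-57228386: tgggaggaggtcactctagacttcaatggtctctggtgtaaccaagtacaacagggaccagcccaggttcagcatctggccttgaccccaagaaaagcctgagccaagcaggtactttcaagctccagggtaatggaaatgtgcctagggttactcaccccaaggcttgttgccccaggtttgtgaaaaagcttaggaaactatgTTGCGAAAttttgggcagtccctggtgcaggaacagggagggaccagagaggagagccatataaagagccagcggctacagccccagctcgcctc

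Both strands were searched for GAGGAAG (PU.1 type, found in 13.6% of the 32851 promoters of the table), TTCNNNGAA (STAT type, 8.3%), the interferon-stimulated response element type (3.44%), TTGCNNAA (C/EBP type, 10.8%) and the NF-kB consensus (8.46%). C1qc held the PU.1 type on the opposite strand at -194 to -188 and the NF-kB consensus at -41 to -32, counted from the RefSeq start of each promoter. That start lies 151 bases downstream of the GENCODE start given above for C1qc. It lies 216 bases downstream for C1ra, 202 for C5ar1 and 4 for C3ar1, and 13 bases upstream for C1qb. For C3 the starts are the same. C3 held the C/EBP type at -45 to -38. C1ra held a C/EBP type match at 17 to 24 and a STAT type match at 33 to 41, downstream of its start, and the other 3 promoters held none of the 5 motifs. These are matches of letters in a window of 300 bases and not measured binding.

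Total counts were 34739679 to 37629264 in the P60 libraries and 13760765 to 16808499 in C57. Yap1, the targeted gene, was at 15.2, 21.3 and 24.01 CPM in Yap CKO against 66.3, 60.3 and 56.8 CPM in control and fell (log2 fold change -1.60, edgeR adjusted p = 0.0327). In C57 it was at 23.9, 25.8 and 31.1 CPM, overlapping Yap CKO and below every control library. Rod markers, summed over 14 genes, ran from 1171 to 24119 CPM in Yap CKO, from 4440 to 22669 CPM in control and from 109896 to 129926 CPM in C57. Yap CKO 3 stood apart with 1139 CPM of 10 lens genes, against at most 25.2 CPM in any other library. Blood markers, summed over 5 genes, were at 210 CPM in C57 1, 119 CPM in C57 2 and 23.1 CPM in the C57 library without a matching number. No P60 library held more than 15.2 CPM of them. By Y-linked genes and Xist, Yap CKO 1 and 2 were female and Yap CKO 3 male, all controls were male, and C57 2 was male while the other C57 retinas were female. In whole tissue, a change in the number of cells of a type and a change in RNA per cell cannot be told apart.

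The first comparison, Yap CKO against control, sets P60 retinas with Cre and floxed Yap against P60 retinas with floxed Yap alone. Cre goes with the loss of Yap, and sex was uneven, with Yap CKO 1 and 2 female and all controls male. The part of each was not tested. None of the 9 complement members passed in this comparison. C3, C4b, C1qb, C3ar1 and C5ar1 had positive fold changes, Serping1 and C1ra negative ones, and C1qa and C1qc lay close to 0, and the ratios ran from 0.731 for C1ra to 1.33 for C5ar1. Across all 16539 genes tested by edgeR's quasi-likelihood test, 33 passed an adjusted p of 0.05, which is 0.2% (0.0181% higher and 0.181% lower). Without adjustment 1 member, Serping1, had p under 0.05, where 17.8% of all genes did. DESeq2 and limma-voom called 0 of the 9 members as well. The median log2 fold change of the members was 0.23, beside 0.01 over all genes.

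The other comparisons, control against C57 and Yap CKO against C57, set P60 retinas against P30 wild type retinas. Age, floxed alleles, injection, source series, depth and whatever the letters MNU stand for differ in both. Control against C57 also differs in sex, as all controls were male while C57 held both sexes. Yap CKO against C57 also differs in Cre and in the targeting of Yap, while both of these groups held both sexes. These factors cannot be told apart. All 9 members had positive fold changes in both. In control 7 rose and none fell, where 45.5% of 15820 genes tested were called (23.1% higher and 22.4% lower), and C1qa and C1qb missed the threshold. All 9 had an unadjusted p under 0.05, where 53.6% of all genes did. In 8 of them every control library was above every C57 library, where 58.8% of all genes did not overlap (29.4% higher and 29.4% lower). In Yap CKO 8 rose and none fell, where 40.5% of 15840 genes were called (20.3% higher and 20.2% lower), and C1qa missed the threshold. Those 8 had an unadjusted p under 0.05, where 50.2% of all genes did. The libraries did not overlap for 7, all higher in Yap CKO, where 55% of all genes did not overlap (27.9% higher and 27.1% lower). The median log2 fold change of the members was 2.09 in control and 1.96 in Yap CKO, beside 0.03 and 0.02 over all genes. Both comparisons use the same C57 libraries, so their likeness is not independent. The filter on low counts kept all 9 members in each comparison. Against C57, C5ar1 reached the filter level through the P60 libraries alone, where it is high, so its calls are no support for a rise. C3ar1 reached the level in 2 of the 3 C57 libraries.

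**Figure D1:**
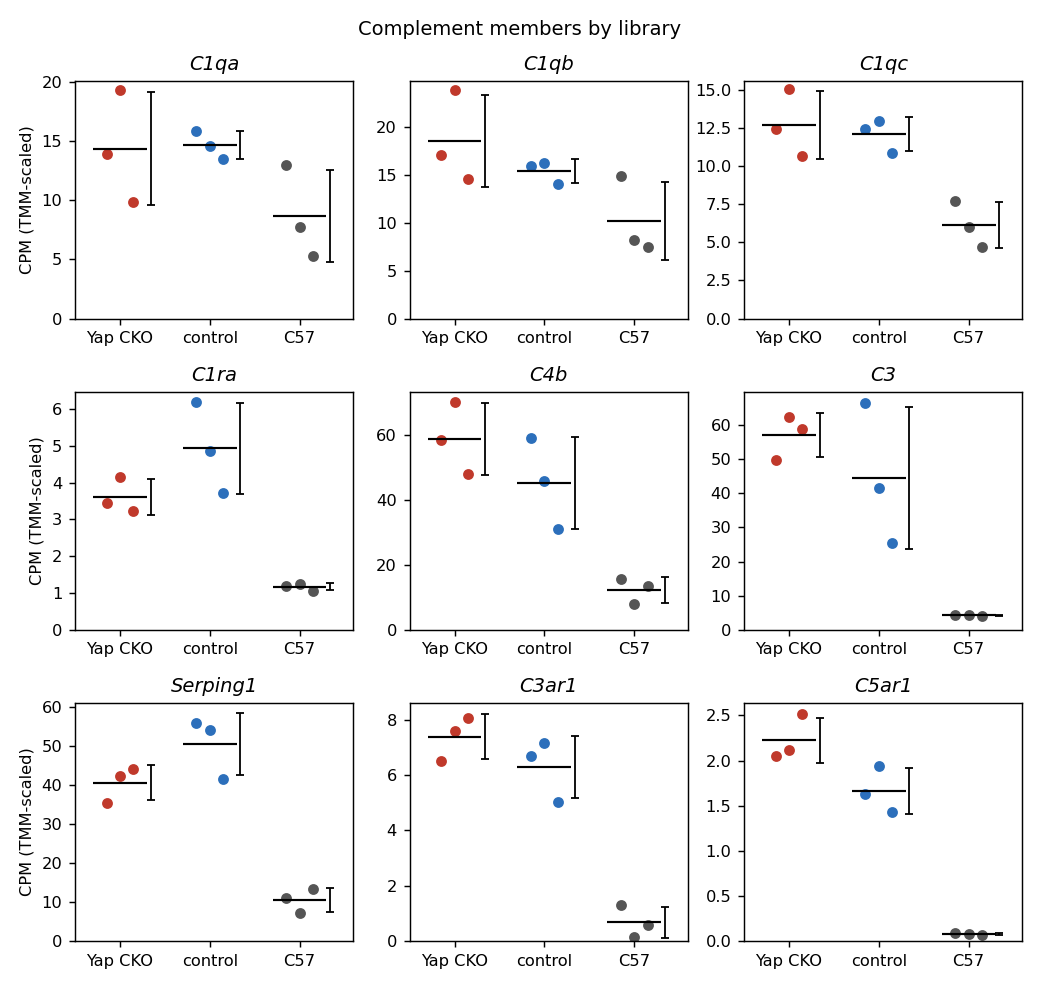
Levels of the 9 complement members by library, in TMM-scaled CPM. Points are single libraries (n = 3 per group), bars the group means and error bars the SD; for C3 the 3 C57 libraries sit at 4.12 to 4.29 CPM and all P60 libraries at 25.3 CPM or more, while Yap CKO and control overlap in every panel but C5ar1.

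The C1q chains were present in all retinas and moved least. Levels are given in CPM, read counts divided by library size and scaled by TMM over the 9 libraries. C1qa was at 13.9, 19.3 and 9.85 CPM in Yap CKO 1, 2 and 3, at 15.8, 14.6 and 13.5 CPM in control 1, 2 and 3, and at 12.9, 7.70 and 5.32 CPM in C57 1, C57 2 and the C57 library without a matching number. The control group lay wholly above C57 and the Yap CKO group overlapped both. Against C57 the log2 fold change was 0.79 in control (SE 0.28, adjusted p = 0.0529) and 0.74 in Yap CKO (SE 0.35, adjusted p = 0.125).

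C1qb was at 17.1, 23.9 and 14.6 CPM in Yap CKO, 15.9, 16.3 and 14.03 CPM in control and 14.9, 8.21 and 7.45 CPM in C57. C57 1 reached into the range of both P60 groups. C1qb rose in Yap CKO against C57 (log2 0.87, SE 0.30, adjusted p = 0.0447) and not beyond the threshold in control against C57 (log2 0.63, SE 0.25, adjusted p = 0.0775). The Yap CKO call was lost without C57 2 (adjusted p = 0.1604), without the unnumbered C57 library (0.118), without Yap CKO 1 (0.0792) and without Yap CKO 2 (0.172). Without C57 1, whose C1qa and C1qb stood highest in its group, C1qa and C1qb passed in both comparisons, with log2 fold changes of 1.19 and 1.00 in control and 1.14 and 1.24 in Yap CKO.

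C1qc was at 12.4, 15.04 and 10.6 CPM in Yap CKO, 12.4, 12.95 and 10.8 CPM in control and 7.71, 5.99 and 4.69 CPM in C57. Every P60 library was above every C57 library, and it rose in both comparisons (log2 1.06 in Yap CKO, adjusted p = 0.0078; 1.00 in control, adjusted p = 0.00452). Between Yap CKO and control the 3 chains had log2 fold changes of -0.03, 0.26 and 0.07, with 95% intervals of the ratio of 0.672 to 1.42 for C1qa, 0.896 to 1.60 for C1qb and 0.832 to 1.32 for C1qc.

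Per kilobase of exon, C1qa made up 36.5% ± 2.70 of the summed C1q signal in Yap CKO, 40.8% ± 1.37 in control and 39.3% ± 3.22 in C57 (SD, n = 3 each). The C1qb share was 45.6% ± 1.46 in Yap CKO, 41.1% ± 0.797 in control and 45.0% ± 2.92 in C57. C1qb and C1qa were thus near each other, and C1qc was the smallest share in every library.

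C1ra, a serine protease of the C1 complex, was the lowest of the secreted members. It was at 3.43, 4.16 and 3.23 CPM in Yap CKO, 6.20, 4.87 and 3.73 CPM in control and 1.199, 1.26 and 1.06 CPM in C57. The P60 libraries were all above the C57 libraries, and C1ra rose against C57 in Yap CKO (log2 1.62, SE 0.24, adjusted p = 0.00118) and in control (log2 2.09, SE 0.26, adjusted p = 0.000587). Yap CKO averaged 3.61 ± 0.487 CPM and control 4.94 ± 1.24 CPM (SD, n = 3 each), with control 3 inside the Yap CKO range. The ratio was 0.731 (95% interval 0.526 to 1.01, edgeR adjusted p = 0.299). C1rb, a close copy of C1ra, had 2 reads in 1 C57 library and none elsewhere, and reads shared by both copies leave the C1ra level uncertain.

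C4b encodes complement C4, the substrate of C1s, and was among the members with the highest CPM. It was at 58.4, 70.0 and 47.9 CPM in Yap CKO, 58.97, 45.7 and 30.9 CPM in control and 15.8, 7.99 and 13.3 CPM in C57. Control 3 was lowest of the P60 libraries and still above every C57 library. C4b rose 4.78-fold in Yap CKO (log2 2.26, SE 0.26, adjusted p = 0.000374) and 3.71-fold in control (log2 1.89, SE 0.30, adjusted p = 0.00177). The Yap CKO and control levels overlapped (ratio 1.30, 95% interval 0.836 to 2.02). C4a, a near-identical copy, had 0 to 16 reads per library, but reads shared by both copies make the C4b level uncertain.

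C3 had the largest fold changes against C57 of the secreted members. Its CPM was 49.8, 62.3 and 58.9 in Yap CKO, 66.6, 41.5 and 25.3 in control, and 4.20, 4.29 and 4.12 in C57. The C57 libraries were nearly equal, the Yap CKO libraries close together, and the controls far apart. C3 rose 13.6-fold in Yap CKO (log2 3.77, SE 0.16, adjusted p = 6.76e-06) and 10.7-fold in control (log2 3.42, SE 0.36, adjusted p = 0.000267). Yap CKO averaged 56.99 ± 6.46 CPM and control 44.5 ± 20.8 CPM (SD, n = 3 each). Their ratio was 1.28 (95% interval 0.684 to 2.40, edgeR adjusted p = 0.666) and ran from 1.0525 without control 3 to 1.69 without control 1 when 1 library was left out.

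Serping1 encodes the C1 inhibitor, which blocks C1r and C1s. It was at 35.6, 42.3 and 44.2 CPM in Yap CKO, 55.97, 54.3 and 41.5 CPM in control and 10.96, 7.18 and 13.4 CPM in C57. Control 1 and 2 were above all Yap CKO libraries, and control 3 was among them. Serping1 rose against C57 in Yap CKO (log2 1.96, SE 0.23, adjusted p = 0.000404) and in control (log2 2.29, SE 0.23, adjusted p = 0.000243). It stood at 40.7 ± 4.55 CPM in Yap CKO and 50.6 ± 7.89 CPM in control (SD, n = 3 each). The ratio was 0.803 (95% interval 0.649 to 0.992), with an edgeR p of 0.0436 before adjustment and 0.264 after it.

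The anaphylatoxin receptors, found mainly on myeloid cells, were low in C57 and had the largest ratios to it along with C3. C3ar1, the C3a receptor, was at 6.49, 7.597 and 8.06 CPM in Yap CKO, 6.70, 7.16 and 5.04 CPM in control and 1.28, 0.148 and 0.568 CPM in C57. Each P60 library was above each C57 library. C3ar1 rose in Yap CKO (log2 3.51, SE 0.47, adjusted p = 0.000784) and in control (log2 3.30, SE 0.46, adjusted p = 0.00096).

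C5ar1, the C5a receptor, was at 2.05, 2.12 and 2.51 CPM in Yap CKO, 1.63, 1.94 and 1.43 CPM in control and 0.0857, 0.0740 and 0.0710 CPM in C57, where each library held 1 read. From 264 reads in Yap CKO and 3 in C57 the ratio was 29.2 (95% counting interval 9.87 to 142), and from 199 reads in control it was 21.8 (7.35 to 107). The edgeR adjusted p was 7.93e-05 in Yap CKO and 0.000145 in control. C5ar1 was tested through the P60 libraries alone, where it is high, so these calls are no support for a rise. C5ar1 was the 1 member whose Yap CKO and control libraries did not overlap, being higher in Yap CKO, as were 13.5% of all genes tested. Its ratio was 1.33 (95% interval 0.988 to 1.79, adjusted p = 0.298).

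**Figure D2:**
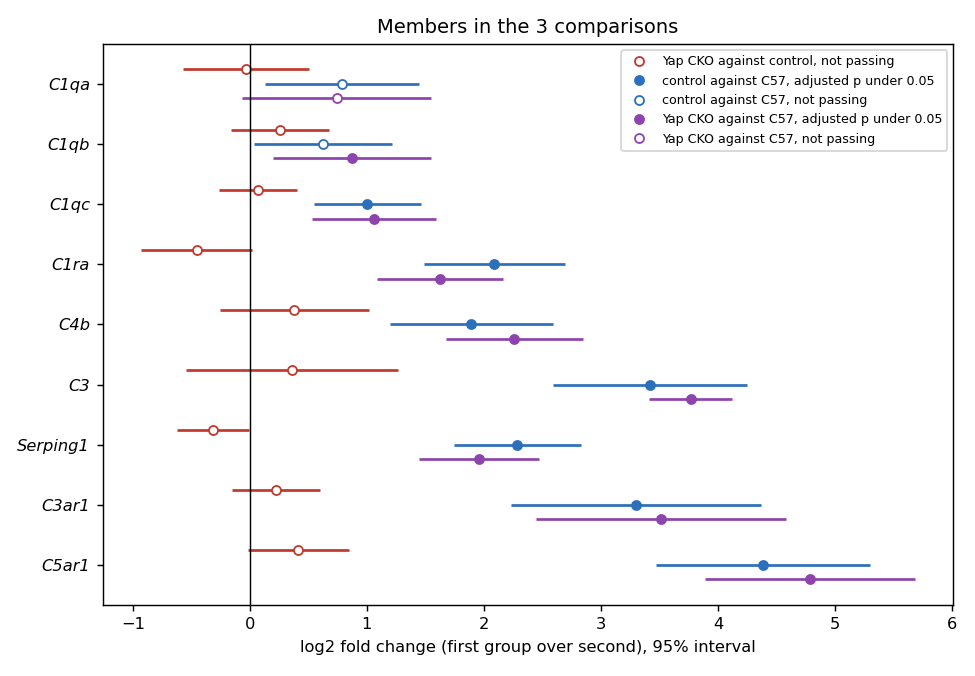
Log2 fold changes of the 9 members with 95% intervals from edgeR, for Yap CKO over control (red), control over C57 (blue) and Yap CKO over C57 (purple). Filled points passed an adjusted p of 0.05. All red points are open, and the points against C57 run from 0.63 for C1qb in control to 4.79 for C5ar1 in Yap CKO. Against C57, C5ar1 was tested through the P60 libraries alone, so its filled points are no support for a rise.

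Compared per length, the order of the members changed with the group. In Yap CKO Serping1 led with 17.5 ± 1.96 CPM per kilobase, followed by C1qb at 17.0 ± 4.44, C1qa at 13.8 ± 4.57, C3 at 11.1 ± 1.26 and C4b at 10.3 ± 1.94 (SD, n = 3), each overlapping the next. In control Serping1 led at 21.8 ± 3.39 CPM per kilobase with no overlap with C1qb at 14.2 ± 1.12, and C3, C4b and C1qc followed C1qa at 8.65 ± 4.04, 7.93 ± 2.47 and 6.25 ± 0.573. In C57 C1qb and C1qa led at 9.37 ± 3.77 and 8.32 ± 3.74 CPM per kilobase, while C3 came sixth at 0.817 ± 0.0170. C3ar1, C1ra and C5ar1 were the lowest in each of the 3 groups.

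The rest of the pathway was read from a list of 49 further complement genes, of which 27 were tested between Yap CKO and control. None passed (14 positive and 13 negative, median log2 0.03); at an unadjusted p under 0.05 edgeR had 1 higher and 5 lower, where 17.8% of all genes had such a p. DESeq2 called 3, where it called 5.56% of all genes, and limma-voom called 0. Colec12, a scavenger receptor of the collectin family, had the smallest adjusted p. It was at 1.34, 1.99 and 2.21 CPM in Yap CKO against 7.55, 7.18 and 3.75 CPM in control, without overlap (log2 -1.74, SE 0.31, adjusted p = 0.0739). It passed with DESeq2, with no filter, with all 9 libraries in one fit, without control 3 and without Yap CKO 3. The authors' deposited table lists Colec12 with a log2 fold change of -1.73 and an adjusted p of 6.75e-06 from the authors' own test. It lists none of the 9 members. By its name that table was cut on p, fold change and level, so the absence of the members is no separate result. Colec12 was singled out after its values were seen, as were the genes of the next sentences that are not among the most abundant of their class.

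Among the regulators, Csmd1, Csmd2 and Csmd3, which encode membrane proteins with complement control domains, lay lower in Yap CKO without overlap, as did 11.8% of all genes tested (25.3% in either direction). Csmd2 was at 24.1, 25.5 and 24.7 CPM in Yap CKO against 29.3, 30.6 and 32.4 CPM in control (log2 -0.32, adjusted p = 0.107), and for Csmd3 the log2 difference was -0.62, with an adjusted p of 0.103. DESeq2 called Csmd2 and Csmd3, as did edgeR without Yap CKO 3. Clu, which encodes clusterin, an inhibitor of the terminal complex, was at 2144, 2246 and 2630 CPM in Yap CKO against 2084, 1877 and 1751 CPM in control. All Yap CKO libraries were above the controls, but the difference did not pass (log2 0.29, SE 0.10, adjusted p = 0.195). Vtn and Susd4, the next most abundant regulators, had log2 fold changes of 0.14 and 0.11. Cfb, the protease of the alternative branch, was at 0.278, 0.388 and 0.473 CPM in Yap CKO against 1.47, 0.870 and 0.509 CPM in control (log2 -1.31, adjusted p = 0.175), and for Cfp, which encodes properdin, the log2 difference was 0.47, with an adjusted p of 0.3998.

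**Figure D3:**
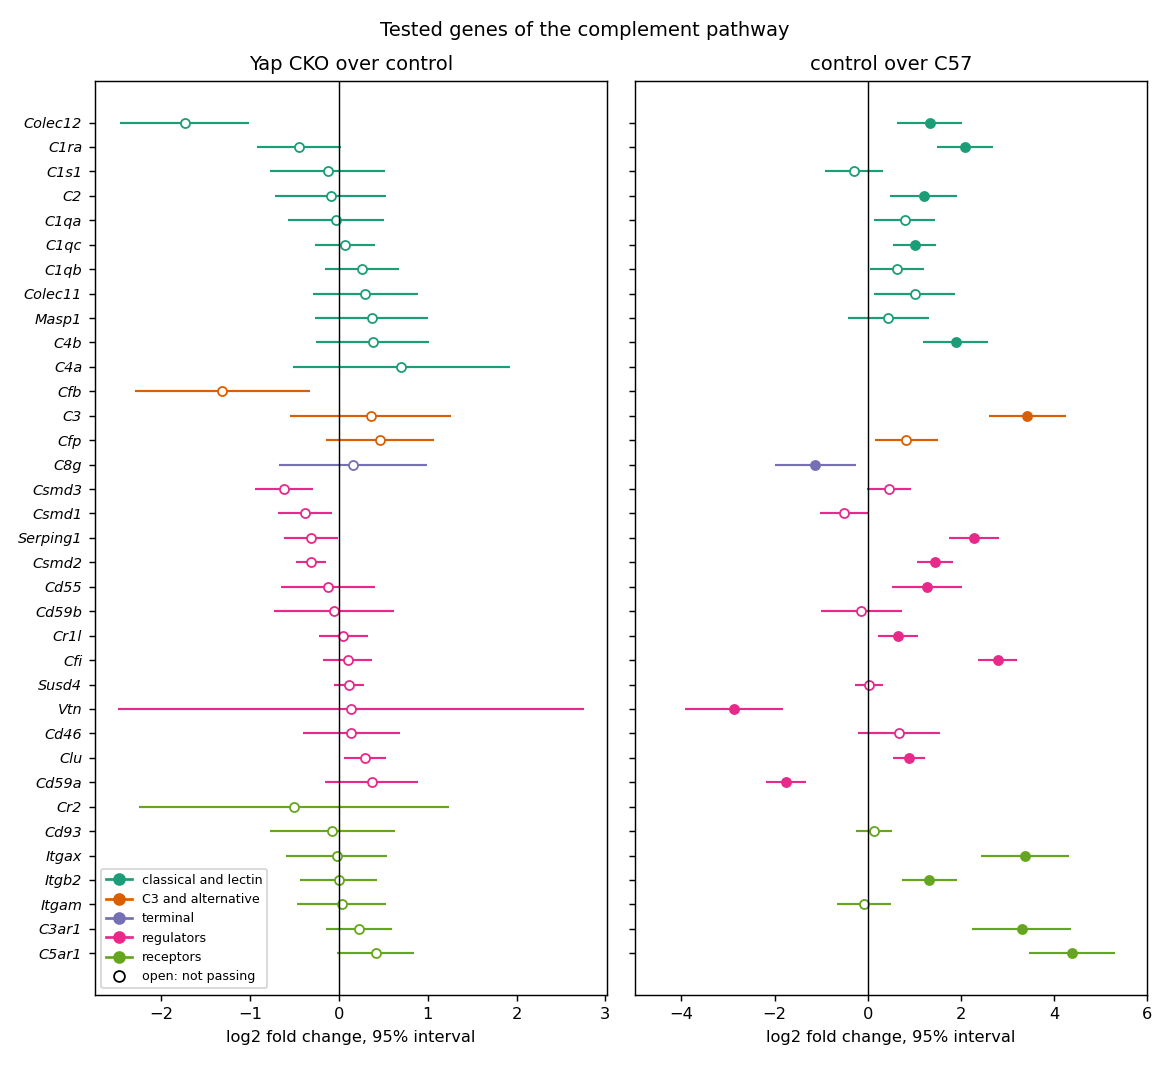
Log2 fold changes with 95% intervals for tested genes of the complement pathway, members included, coloured by branch: Yap CKO over control on the left, control over C57 on the right. Filled points passed an adjusted p of 0.05; no point on the left is filled, and Cfb is left out on the right because it had no read in C57.

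Against C57, 10 of 25 further complement genes tested were called higher in control and 4 lower (median log2 0.65, which was the same with Cfb at its bound), and 9 and 3 of 24 in Yap CKO (median 0.41). That is 56% called in control, where 45.5% of all genes were, and 50% in Yap CKO, where 40.5% were. Of the genes tested, 5 in control and 4 in Yap CKO, Itgax and Cfb among those in control and Itgax among those in Yap CKO, reached the filter level in no C57 library and were tested through the P60 libraries alone. Cfi, the protease that inactivates C3b and C4b, rose to 18.5 ± 1.10 CPM in Yap CKO and 17.2 ± 2.56 CPM in control, against 2.54 ± 0.349 CPM in C57 (log2 2.87 and 2.79; adjusted p = 3.07e-05 and 4.14e-05). Clu rose as well (log2 1.17 in Yap CKO and 0.89 in control). Cfb had 45 reads in Yap CKO, 112 in control and 0 in C57. With 3 reads over the C57 group as the floor, the ratio of pooled reads was at least 4.97 in Yap CKO and 12.3 in control. This bound leaves out the spread between retinas. Cfb was not tested in Yap CKO against C57, and in control it was tested through the P60 libraries alone, so its call is no support for a rise. Itgb2, which encodes the shared subunit of complement receptors 3 and 4, rose in both groups (log2 1.31 in Yap CKO and 1.32 in control), while Itgam, its partner in receptor 3, and Cd93 did not pass. Itgax, its partner in receptor 4, had 157 reads in Yap CKO, 161 in control and 5 in C57. Itgax was tested through the P60 libraries alone, where it is high, so its calls are no support for a rise.

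Not all regulators rose. Vtn, which encodes vitronectin, was at 379, 199.9 and 39.5 CPM in Yap CKO, 315, 78.4 and 168 CPM in control and 1537, 1513 and 1129 CPM in C57, and fell in both comparisons (log2 -2.75 and -2.88; adjusted p = 0.037 and 0.00172). Its P60 values were lowest in the libraries with the lowest rod markers of each group, Yap CKO 3 and control 2; the part of rods in this was not tested. Cd59a, which blocks the membrane attack complex, fell too (log2 -1.39 in Yap CKO and -1.75 in control). The terminal components were scarce: of 7 genes 1, C8g, was tested, which fell in control (log2 -1.13, adjusted p = 0.0404) and did not pass in Yap CKO (log2 -0.98, adjusted p = 0.0824). C8b and Hc, the gene of C5, had at most 0.158 CPM in any library.

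Cells of the myeloid lineage are the main source of C1q and of both receptors, so their markers are set beside these results. The 14 microglia markers summed to 104 to 119 CPM in Yap CKO, 97.0 to 104 CPM in control and 131 to 136 CPM in C57. Against C57, 6 of 14 were called lower and 1 higher in control, and 7 lower and 2 higher in Yap CKO. That is 50% called in control and 64.3% in Yap CKO, where 45.5% and 40.5% of all genes were called (22.4% and 20.2% lower). P2ry12, a marker of resting microglia, was among the lower ones, at 0.363 ± 0.00982 CPM in Yap CKO, 0.264 ± 0.132 CPM in control and 5.83 ± 1.054 CPM in C57. It reached the filter level in 2 Yap CKO libraries, 1 control library and all 3 C57 libraries, so its test rested on the C57 libraries, where it is high. The summed C1q chains equalled 32.7% to 49.1% of the summed microglia markers in Yap CKO, 37.0% to 45.6% in control and 13.3% to 26.8% in C57.

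The 12 monocyte and macrophage markers summed to 40.7 to 66.6 CPM in Yap CKO, 35.4 to 47.8 CPM in control and 6.94 to 8.07 CPM in C57. Of 6 tested against C57, 4 were called higher in either group, where 20.3% of all genes in Yap CKO and 23.1% in control were called higher, among them Cd68, Cd14 and Lyz2 (log2 3.62, 4.42 and 2.26 in Yap CKO). Of the markers, P2ry12, Ccr2, Ly6c2 and the neutrophil genes were singled out after their values were seen. The monocyte receptor Ccr2 had 5 to 44 reads in the Yap CKO libraries, 11 to 39 in the control libraries and 0 or 1 in C57, and Ly6c2 had no read in C57. The 8 neutrophil markers summed to 0.606 to 1.24 CPM in Yap CKO, 0.606 to 0.845 CPM in control and 0.781 to 1.55 CPM in C57. Of these, Csf3r had 7 to 19 reads and S100a8 1 to 12 reads per library, S100a9 had up to 14, and Mpo and Elane had none in any library. Reactive glia markers summed over 10 genes to 2323 to 2860 CPM in Yap CKO, 1947 to 2267 CPM in control and 119 to 184 CPM in C57. The part of these cells in the complement results was not tested. Between Yap CKO and control, none of the 14 microglia and 9 tested monocyte and macrophage markers passed (edgeR; at an unadjusted p under 0.05, 1 microglia marker was higher).

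**Figure D4:**
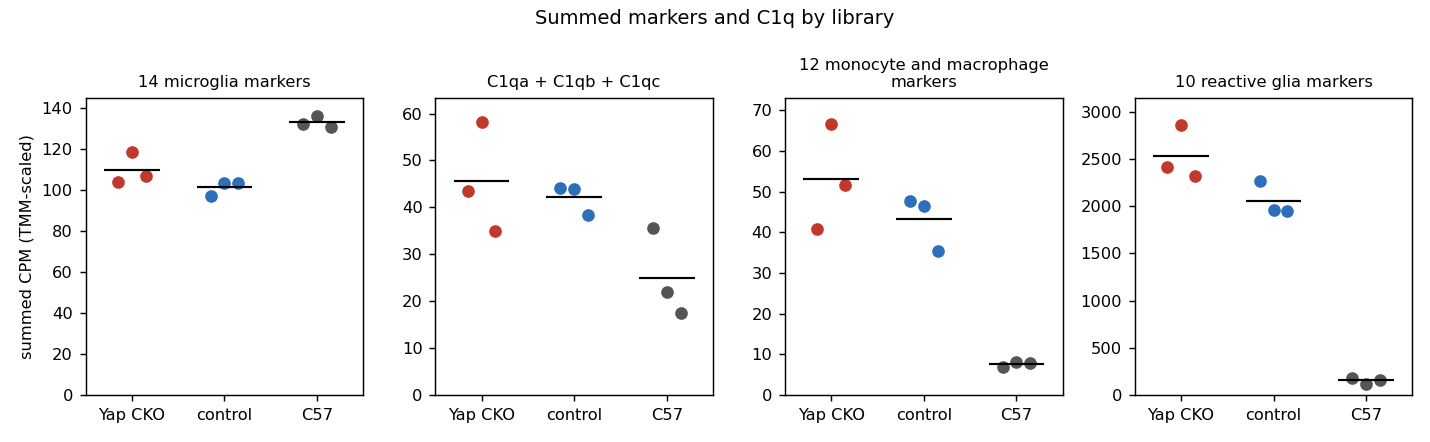
Summed CPM by library of 14 microglia markers, the 3 C1q chains, 12 monocyte and macrophage markers and 10 reactive glia markers. Points are libraries and lines group means (n = 3). C1q is higher in the control libraries (38.4 to 44.2 CPM) than in C57 (17.5 to 35.5 CPM), where the microglia sum is highest. The Yap CKO libraries (35.0 to 58.3 CPM of C1q) overlap C57.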

How the data were processed

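The authors deposited whole-number read counts per Ensembl gene for 9 libraries, not normalized. Alignment to GRCm38 involved HISAT2 2.1.0, with featureCounts and edgeR also listed, per the submitters' processing notes. Neither the annotation release nor the strand setting is stated. The authors' deposited table of changed genes holds log2 fold changes and p-values per the file headers; its 9 columns of values per library were not used. A symbol was found for 47224 of 47729 identifiers; positions and exon lengths come from GENCODE M21 (GRCm38), promoters from RefSeq (GRCm38.p6). One C57 column carries a number in no sample description and was kept in its group by name.

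For each comparison its 6 libraries were fitted alone: filterByExpr (minimum count 10, total 15), TMM scaling, edgeR 4.0.16 robust quasi-likelihood tests (R 4.3.3), Benjamini-Hochberg adjustment over all genes, threshold 0.05. Printed CPM come from TMM scaling over all 9 libraries. SE and 95% intervals follow from the F statistic. On simulated counts for Yap CKO against control, the test recovered 32.8% of genes changed 1.5-fold, 62.7% of those changed 2-fold and 93.9% of those changed 4-fold, among 16539 genes. Alternatives used DESeq2 1.42.0, limma 3.58.1, other scalings and filters, 1 fit over all libraries, thinning and omitted libraries. Counting intervals and the floor of 3 reads cover counting error only. Replicate libraries differed by more than sampling noise.

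The members and lists were chosen with earlier results of these data known. The text names all members, Yap1, the 3 most abundant genes of each class of the pathway, the 3 most abundant of a marker list where single markers are named, and the 5 genes most like C1q, C3 and C5ar1 over the P60 libraries. Single results for some listed genes, and their points in a figure, are not reported here.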

Additional observations from a re-analysis of the deposited data

How the results depend on the processing

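None of the 9 members passed between Yap CKO and control under any of the 16 alternatives run. In that comparison the calls over all genes numbered 33 and became 15 with RLE scaling, the 1 CPM filter, limma-voom or bias-adjusted deviances, 17 with upper-quartile scaling, 60 with one fit over 9 libraries, 343 with no filter, 370 at an adjusted p of 0.10, 919 with DESeq2 and 0 to 1473 when 1 library was left out (0 without control 1 or control 2, with 2035 and 2226 at an unadjusted p under 0.05, and 1473 without Yap CKO 3). For the wider complement list, 0 became 1 with one fit over 9 libraries or at 0.10, 2 with no filter, 3 with DESeq2 and 0 to 3 when 1 library was left out. The sign of C1qa turned with upper-quartile scaling (log2 0.0082), and C1qa ran from -0.32 to 0.18 and C1qc from -0.081 to 0.18 as libraries were left out. Against C57, 7 to 9 members passed in either comparison under all alternatives, and C1qc, C1ra, C4b, C3, Serping1, C3ar1 and C5ar1 passed in each. C5ar1 reached the main filter level through the P60 libraries alone, so its passing is no support for a rise. Over the 16 refits at a threshold of 0.05, C1qa passed in control in 6 and C1qb in 3, and they passed in Yap CKO in 2 and 12. Calls for Yap CKO against C57 ran from 3905 to 8013 over all genes and from 13 to 22 in the wider list as libraries were left out (3986 without C57 2; 3905 and 13 without Yap CKO 2). The cause was not tested.

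With the replicate number as a block, 45 genes passed between Yap CKO and control and 0 members. Same-numbered libraries deviated together for 1 of the 3 numbers (correlations 0.528, -0.0767 and 0.0103), so the numbers were not taken to pair the retinas. Against C57, the block over the 2 numbered pairs called 8 members in control and 9 in Yap CKO, with 5908 and 5560 genes in all. At 1 read per C57 library, depth limits the C5ar1 ratio.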

Other observations

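Control 3 held the lowest level of the 3 controls for 9 of 9 members, while it was lowest for 26.1% of all 16539 genes tested. Summed over the members, the libraries held 199, 247 and 199.9 CPM in Yap CKO 1, 2 and 3 and 240.3, 199 and 146 CPM in control 1, 2 and 3. Yap CKO 2 was highest of its group for 6 members, C1qa, C1qb, C1qc, C1ra, C4b and C3, and Yap CKO 3 for the other 3, Serping1, C3ar1 and C5ar1.

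Over the 6 P60 libraries, the genes whose log2 level ran most like the mean of the C1q chains were Ighmbp2, Tinf2, Tbce, Zfp661 and Mrpl19 among 11317 compared, those most like C3 were Phyh, Gfm1, Glmp, Setmar and Spag7, and those most like C5ar1 were Tmem109, Ly6a, Nmral1, Hspa12b and Sord. They were picked as the highest of many over 6 libraries. Ly6a was at 23.7, 24.1 and 28.7 CPM in Yap CKO and 20.7, 22.1 and 18.2 CPM in control.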
